A study of Homo sapiens with 6 samples.

Results

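The interior of chromosome 2 is described here as it appeared in 4 lists of γH2AX peaks. Its members are the peaks on chromosome 2 whose midpoint lay from 5 Mb after the start of the chromosome to 5 Mb before the highest position covered by any list (242558373, genome build hg18), leaving out midpoints from 88 to 98 Mb beside the centromere. They numbered 648 of the 12579 peaks in all 4 lists. The stretch kept spans 222.558 Mb, from 5000000 to 237558373 with the centromere side left out. The members were chosen by position alone, but the low share of chromosome 2 among the peaks of pemetrexed-treated knockout cells was already known when the stretch was proposed. Numbers of peaks are therefore given as a description.

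The lists come from chromatin immunoprecipitation followed by sequencing (ChIP-seq) with an antibody against H2A.X phosphorylated at serine 139. The material was DLD1, a long-established cell line from a human colorectal tumour. They were either wild type for UNG (UNG+/+, called WT here) or UNG knockout (UNG-/-, called KO), and each genotype was treated with pemetrexed, with cisplatin or with neither. Each of these 6 groups has 1 library, and the lists analysed here are those of the 4 drug-treated libraries. The 2 untreated libraries were not analysed here, so peaks that are also present without a drug cannot be told apart from the others. The sources used here give no dose and no treatment time, and do not say whether the knockout line is a single clone.

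γH2AX is the histone variant H2AX after phosphorylation by the kinases of the DNA damage response, and it spreads over the chromatin on both sides of a DNA double strand break. UNG is the glycosylase that cuts uracil out of DNA at the first step of base excision repair. Pemetrexed is an antifolate that blocks thymidylate synthase, so that dUTP rises relative to dTTP and uracil is built into new DNA. Cisplatin binds and crosslinks purine bases, and these lesions are handled mainly by nucleotide excision and crosslink repair. Chromosome 2 arose by end-to-end fusion of a pair of ancestral ape chromosomes, and its long arm keeps the remains of the fusion point and of a lost centromere. Whether any peak lies at those remains was not tested.

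With 1 library per group there is no replicate check and no test between conditions. Intervals are exact 95% intervals for numbers of peaks. They cover counting error only, and they treat neighbouring peaks as independent, which makes them too narrow. Read depth is unknown for every library, and a deeper library or another control can change how many peaks are called and how wide they are. No p-value, height or score is given for a peak. Genes are not named, because the gene table at hand is for another build than the peaks, and for the same reason no sequence is shown.

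The number of interior peaks differed between the lists. WT cells held 90 peaks after pemetrexed and 131 after cisplatin. KO cells held 154 after pemetrexed and 273 after cisplatin. Both KO lists were thus longer than both WT lists, and within each genotype the cisplatin list was the longer. The KO list was 1.71 times as long as the WT list after pemetrexed (95% interval 1.31 to 2.24) and 2.08 times as long after cisplatin (1.69 to 2.59). The pemetrexed ratio divided by the cisplatin ratio was 0.821 (0.581 to 1.16), an interval that includes 1. On the short arm (midpoints under 88 Mb) it was 1.24 (0.772 to 2.01) and on the long arm 0.488 (0.286 to 0.833), where the KO excess was thus the smaller after pemetrexed. With neighbours within 100 kb joined, the value for the whole interior was 0.497. The pemetrexed list held 0.564 times as many interior peaks as the cisplatin list in KO cells (0.460 to 0.690). In WT cells it held 0.687 times as many (0.519 to 0.905).

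Counting groups of neighbours as single regions altered these ratios. When peaks of a list closer than 100 kb were joined into 1 region, KO pemetrexed had 73 regions and WT pemetrexed 88, a ratio of 0.83. The KO excess in number was thus gone. No interval is given for joined regions, so a difference in the other direction is not established. The cisplatin ratio stayed above 1 under the same joining, at 1.67. A minimum width of 600 bp kept 33 WT and 151 KO pemetrexed peaks, a ratio of 4.58.

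Elsewhere in the genome the pemetrexed contrast was larger. Over all peaks placed on a chromosome and outside the chromosome 2 interior, the KO over WT ratio was 6.20 for pemetrexed (5.76 to 6.68) and 2.56 for cisplatin (2.42 to 2.71). The odds of a pemetrexed peak being from KO rather than WT cells were 0.276 times as high in the interior as in the rest (0.209 to 0.366). For cisplatin the corresponding odds ratio was 0.813 (0.653 to 1.02), an interval that includes 1. The interior of chromosome 1, taken with the same 5 Mb left out at its ends and nothing left out at its centromere, had a pemetrexed ratio of 4.74 (3.70 to 6.14). The interiors of chromosomes 4, 13 and 18, taken in the same way, had a ratio of 1.21 (0.874 to 1.67). Against chromosome 1 the odds ratio of the chromosome 2 interior was 0.362 (0.248 to 0.525), and against chromosomes 4, 13 and 18 it was 1.41 (0.923 to 2.17). In the KO over WT contrast after pemetrexed, the chromosome 2 interior lay below chromosome 1. It was not separated from the gene-poor chromosomes 4, 13 and 18 by counting error. The pemetrexed ratio divided by the cisplatin ratio was 2.42 (2.20 to 2.66) in the rest and 1.87 (1.37 to 2.57) on chromosome 1. On chromosomes 4, 13 and 18 it was 0.482 (0.318 to 0.730), close to the 0.488 of the chromosome 2 long arm. The low chromosome 2 share of KO pemetrexed peaks was known when the stretch was proposed. These pemetrexed comparisons therefore restate that observation and are no independent evidence.

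**Figure D1:**
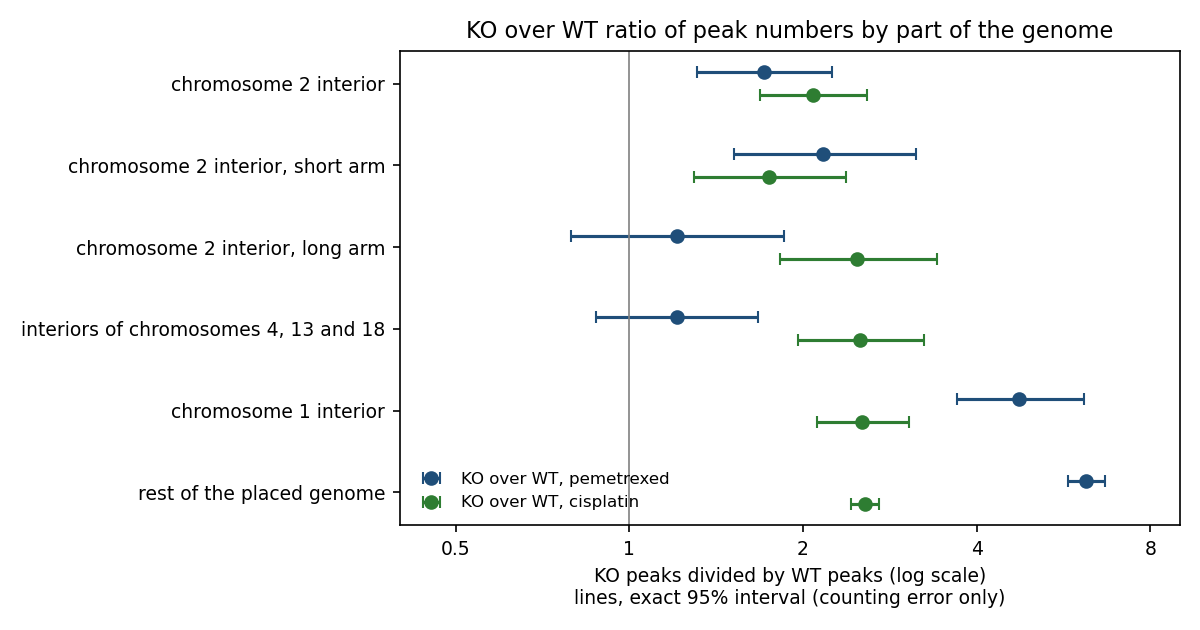
KO peaks divided by WT peaks after pemetrexed (blue) and cisplatin (green) in 6 parts of the genome, on a log axis, with exact 95% intervals. Pemetrexed ratios run from 1.21 in the interiors of chromosomes 4, 13 and 18 and on the long arm of chromosome 2 to 6.20 in the rest of the genome, while cisplatin ratios lie between 1.75 and 2.56.

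The share of each list that lay in the interior was lowest in KO pemetrexed. The low chromosome 2 share of that list was known when the stretch was proposed, so this restates it. The interior held 9.74% of the WT pemetrexed list (7.91 to 11.8%) and 7.25% of the WT cisplatin list (6.10 to 8.54%). It held 5.97% of the KO cisplatin list (5.30 to 6.70%) and 2.92% of the KO pemetrexed list (2.48 to 3.41%). The intervals of the WT lists overlapped, and so did those of the cisplatin lists. Overlap alone does not show that shares are alike. Compared as interior against rest, pemetrexed over cisplatin in WT cells had an odds ratio of 1.39 (1.04 to 1.86), which leaves out 1. For KO over WT after cisplatin the odds ratio was 0.813 (0.653 to 1.02), which includes 1. The interior makes up 7.47% of the span of all chromosomes, each counted from its start to the highest position in any list. The span of the rest was not reduced for centromeres or unassembled sequence, while the interior leaves its centromere side out. Densities of the rest may therefore be too low. Per Mb, KO pemetrexed peaks were 0.373 times as dense in the interior as in the rest, at 0.692 against 1.86 per Mb. WT pemetrexed peaks were 1.35 times as dense, at 0.404 against 0.300 per Mb. The cisplatin lists lay between these, at 0.969 times in WT and 0.788 times in KO.

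Chromosome 2 held 102 further peaks that the position rule left out. They were 15 in the first 5 Mb, 66 in the last 5 Mb and 21 beside the centromere. Of the 66 peaks in the last 5 Mb, 30 were from the KO pemetrexed list, 19 from KO cisplatin, 12 from WT cisplatin and 5 from WT pemetrexed. The first 5 Mb held 12 KO cisplatin, 2 WT cisplatin and 1 WT pemetrexed peak, and 0 KO pemetrexed peaks, so the 2 ends of the chromosome differed in this list. At the boundaries, the nearest midpoints were 289 kb inside and 878 kb outside the 5 Mb mark, 1161 kb inside and 252 kb outside the 88 Mb mark, 19.5 kb inside and 22.99 kb outside the 98 Mb mark, and 939 kb inside and 486 kb outside the last mark. Only the 98 Mb mark separated near neighbours, a pair of KO cisplatin peaks of 612 bp (98019243 to 98019855, inside) and 789 bp (97976618 to 97977407, outside).

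Interior peaks were not spread evenly, and the KO pemetrexed list was the most uneven. The short arm side, with 37.3% of the span, held 66.2% of the KO pemetrexed peaks (102 of 154, 58.2 to 73.6%). It held 54.2% of the WT cisplatin peaks (45.3 to 62.9%), 52.2% of the WT pemetrexed peaks (41.4 to 62.9%) and 45.4% of the KO cisplatin peaks (39.4 to 51.5%). All 4 lists were denser on the short arm, from 1.49 against 1.07 peaks per Mb in KO cisplatin to 1.23 against 0.373 in KO pemetrexed. After pemetrexed the KO over WT ratio was 2.17 on the short arm (1.52 to 3.13) and 1.21 on the long arm (0.792 to 1.86), with an odds ratio between the arms of 1.79 (1.02 to 3.16). After cisplatin the order was the opposite, with 1.75 on the short arm (1.29 to 2.37) and 2.48 on the long arm (1.83 to 3.41), but the odds ratio of 0.704 had an interval that includes 1 (0.453 to 1.09). Within KO cells, pemetrexed over cisplatin was 0.823 on the short arm (0.627 to 1.08) and 0.349 on the long arm (0.249 to 0.482), an odds ratio of 2.35 (1.53 to 3.63).

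Most of the short-arm excess of KO pemetrexed peaks lay in 20 Mb. Counted in stretches of 10 Mb from the centromere side outwards, midpoints from 8 to 18 Mb held 35 KO pemetrexed peaks, against 20 in KO cisplatin, 8 in WT cisplatin and 3 in WT pemetrexed. The next stretch, 18 to 28 Mb, held 26, 33, 6 and 5 in the same order. Together the 2 stretches held 39.6% of the KO pemetrexed peaks, 19.4% of the KO cisplatin peaks, 10.7% of the WT cisplatin peaks and 8.89% of the WT pemetrexed peaks, on 8.99% of the span. The pair was picked out after its values were seen, so these shares carry no test. Outside these 20 Mb the interior held 93 KO and 82 WT pemetrexed peaks, a ratio of 1.13, and 220 KO and 117 WT cisplatin peaks, a ratio of 1.88. Without these 20 Mb the short-arm share of KO pemetrexed peaks was 44.1%. The short arm's share of the span is then also below the 37.3% of the full interior.

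**Figure D2:**
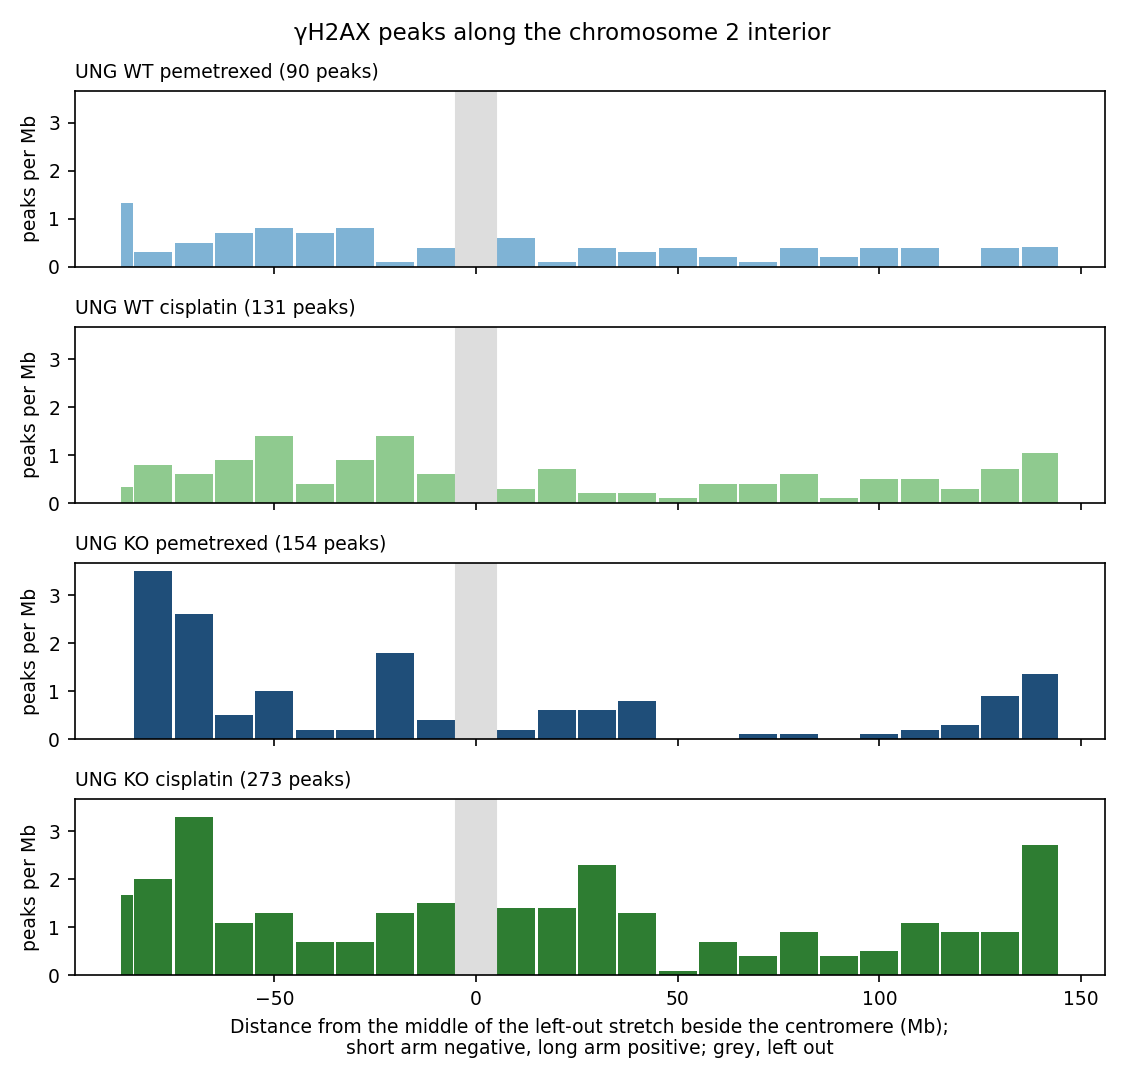
Peaks per Mb in stretches of 10 Mb along the chromosome 2 interior (3 Mb at the short-arm end, 9.56 Mb at the long-arm end), by distance from the middle of the stretch left out beside the centromere, 1 panel per list. KO pemetrexed reaches its highest value 80 Mb out on the short arm, where it held 35 peaks in 10 Mb, and is at or near 0 over much of the middle of the long arm.

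Another local maximum of the KO pemetrexed list lay from 68 to 78 Mb, with 18 peaks against 1 in WT pemetrexed, 13 in KO cisplatin and 14 in WT cisplatin. The WT pemetrexed list had its longest empty run of the short arm here, 13.1 Mb (68687198 to 81814164) in which KO pemetrexed had 18 peaks, KO cisplatin 14 and WT cisplatin 13. The low WT pemetrexed number at this place is thus set against peaks in each of the other lists. On the long arm the KO pemetrexed list had an empty run of 27.95 Mb (131607122 to 159557332), the longest of any list, where KO cisplatin had 14 peaks, WT pemetrexed 9 and WT cisplatin 7. From 138 to 208 Mb the stretches of 10 Mb held 0 to 2 KO pemetrexed peaks each, while those of KO cisplatin held 1 to 11. The KO pemetrexed list was higher again at the outer long arm, with 9 peaks from 218 to 228 Mb and 13 in the 9.56 Mb beyond.

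In windows of 1 Mb the same unevenness was visible. Of 223 windows, 48 held a KO pemetrexed peak, 72 a WT pemetrexed peak, 81 a WT cisplatin peak and 121 a KO cisplatin peak. The KO pemetrexed list was longer than either WT list and yet was found in fewer windows. Just 8 windows held 50% of the KO pemetrexed peaks, while 26 were needed for WT cisplatin, 27 for WT pemetrexed and 29 for KO cisplatin. The fullest window of the KO pemetrexed list (11000001 to 12000000) held 21 peaks and that of KO cisplatin (27000001 to 28000000) held 11. The highest number was 4 in WT cisplatin and 3 in WT pemetrexed, each reached in 2 windows.

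Summed over the lists, the 4 fullest windows lay on the short arm. The windows 11000001 to 12000000 and 26000001 to 27000000 held 25 peaks each. In the first of these 21 peaks were KO pemetrexed, with 2 from each cisplatin list and 0 from WT pemetrexed. In the other 15 were KO pemetrexed, 8 KO cisplatin and 1 from each WT list. Window 10000001 to 11000000 held 23, of which KO pemetrexed and KO cisplatin gave 10 each and WT cisplatin 3. KO cisplatin led in window 27000001 to 28000000, with 11 of 15 peaks. The next place was tied among 4 windows with 14 peaks each. Of these, 25000001 to 26000000, 47000001 to 48000000 and 74000001 to 75000000 are on the short arm and 231000001 to 232000000 is on the long arm.

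Windows chosen for their number of KO pemetrexed peaks also held peaks of the cisplatin lists. In 20 windows there were 3 or more KO pemetrexed peaks, 118 in all or 76.6% of that list. The same 20 windows, out of 223, held 31.1% of the KO cisplatin peaks, 24.4% of the WT cisplatin peaks and 8.89% of the WT pemetrexed peaks. A KO cisplatin peak was present in 18 of them, a WT cisplatin peak in 16 and a WT pemetrexed peak in 6. Counting every window with a KO pemetrexed peak, 40 of 48 (83.3%) also held a KO cisplatin peak, which was present in 54.3% of all windows, and 32 of 48 (66.7%) held a WT cisplatin peak, present in 36.3% of all windows. A WT pemetrexed peak was present in 16 of 48 (33.3%), close to its 32.3% of all windows. KO pemetrexed was present in 21.5% of all windows. As shares of the other lists' windows, it was present in 33.1% of the KO cisplatin and 39.5% of the WT cisplatin windows. In the WT pemetrexed windows its share was 22.2%, close to that of all windows. These shares describe the windows and were not tested, and 58 of the 223 windows held no peak of any list.

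Spacing set the KO pemetrexed list apart as well. The median gap from an interior peak to the nearest other peak of its list was 34.1 kb in KO pemetrexed, 121 kb in KO cisplatin, 298 kb in WT cisplatin and 847 kb in WT pemetrexed. The number of peaks, which itself bears on the gaps, was 154, 273, 131 and 90 in the same order. In KO pemetrexed, 111 of 154 peaks (72.1%, 64.3 to 79.0%) lay within 100 kb of another peak of the list, against 88.4% over the whole list. KO cisplatin had 123 of 273 (45.1%, 39.1 to 51.2%, whole list 57.1%), WT cisplatin 23 of 131 (17.6%, 11.5 to 25.2%, whole list 30%) and WT pemetrexed 4 of 90 (4.44%, 1.22 to 10.99%, whole list 12.6%). In every list the interior share was below that of the rest of the genome. Peak density bears on this share, and its part was not tested. Density in the interior was 0.373 times that of the rest in KO pemetrexed and 0.788 times in KO cisplatin. It was 0.969 times in WT cisplatin and 1.35 times in WT pemetrexed. The odds ratios, interior against rest, were 0.300 for WT pemetrexed (0.0783 to 0.821), 0.324 for KO pemetrexed (0.223 to 0.478), 0.474 for WT cisplatin (0.285 to 0.759) and, highest, 0.598 for KO cisplatin (0.463 to 0.770). Peaks with no other peak of their list within 500 kb made up 10.4% of the KO pemetrexed list (16 peaks), 20.5% of KO cisplatin (56), 33.6% of WT cisplatin (44) and 71.1% of WT pemetrexed (64).

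**Figure D3:**
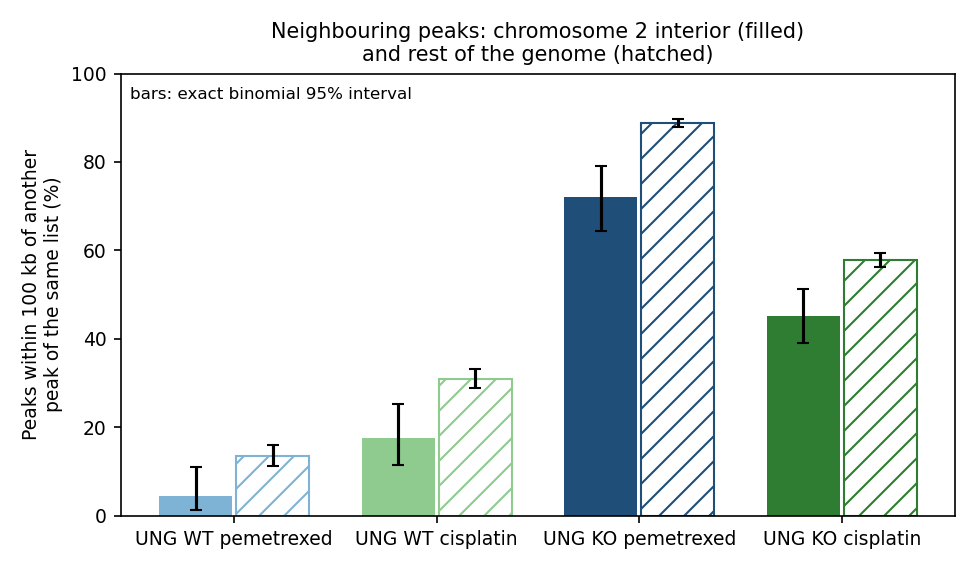
Percent of peaks within 100 kb of another peak of the same list, in the chromosome 2 interior (filled bars) and in the rest of the genome (hatched bars), with exact binomial 95% intervals. The interior bar is the lower in each list, and KO pemetrexed has the highest bar of both kinds, 72.1% and 88.8%.

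Joining peaks less than 100 kb apart showed where the KO pemetrexed peaks gathered. The list formed 30 groups of at least 2 peaks, holding 111 peaks, and 43 single peaks. Of these groups, 9 had at least 4 peaks. KO cisplatin formed 49 groups, 4 of them with at least 4 peaks, WT cisplatin 11 groups and WT pemetrexed 2. Groups in the WT lists did not exceed 3 peaks.

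The largest group held 21 KO pemetrexed peaks in 244 kb on the short arm (11283004 to 11527278), 13.6% of the interior peaks of that list. Their widths ran from 687 to 2677 bp with a median of 1153 bp, and 13 were at least 1 kb wide. Together they covered 27.7 kb, or 11.3% of the span. The gaps between them had a median of 4.27 kb and ran from 0.015 to 80.8 kb. The densest run lay towards the higher-numbered end, where 12 peaks followed each other from 11466901 to 11506588, the widest of them 2677 bp (11477942 to 11480619) and 2497 bp (11466901 to 11469398). Inside the group the WT cisplatin list had 1 peak of 648 bp (11501327 to 11501975), which lay wholly within a KO pemetrexed peak of 1698 bp (11501302 to 11503000). The KO cisplatin and WT pemetrexed lists had 0 peaks there. Within 1 Mb on either side of the group, the group included, there were 28 KO pemetrexed peaks, 10 from KO cisplatin, 4 from WT cisplatin and 1 from WT pemetrexed, so peaks of the other lists were close by. Without the span of this group, the KO over WT ratio of the interior after pemetrexed was 1.48.

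**Figure D4:**
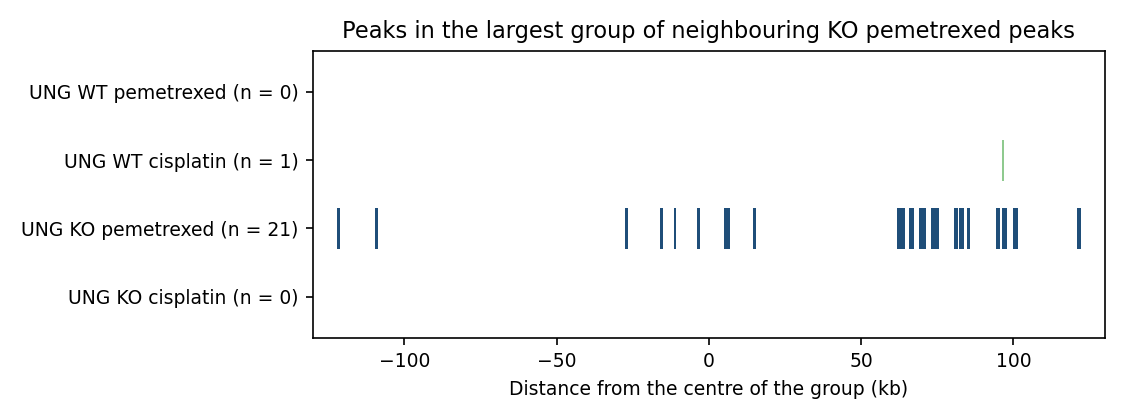
Map of the largest group of neighbouring KO pemetrexed peaks, drawn to scale, with distance from the centre of the group in kb and 1 row per list. The KO pemetrexed row has 21 peaks, most of them to the right of the centre, the WT cisplatin row has 1 peak, and the other two rows are empty.

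The next groups of the KO pemetrexed list were also on the short arm. A group of 12 peaks spanned 260 kb (25999910 to 26259848) with a median width of 1697 bp, and 4 of its peaks were at least 2 kb wide. It included a peak of 5227 bp (26040694 to 26045921) and one of 4588 bp (26030306 to 26034894), and 1 KO cisplatin peak lay in its span. A further group held 6 peaks in 195 kb (10393641 to 10588927), with 3 KO cisplatin and 2 WT cisplatin peaks in the same span. Next was a group of 5 peaks in 64.2 kb (47351656 to 47415896) with no peak of another list. It covered 19.5% of its span and held 1 peak that was 7484 bp wide. The largest KO cisplatin group held 6 peaks in 215 kb (26975596 to 27190386), less than 1 Mb beyond the KO pemetrexed group of 12, with 0 peaks of any other list inside it. The largest WT cisplatin group held 3 peaks in 95.1 kb (42643140 to 42738224). Both groups of the WT pemetrexed list were pairs, at 53722656 to 53767061 and at 134844809 to 134893265, each with 1 KO cisplatin peak in its span.

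By peak width the lists ran from KO pemetrexed, the widest, over KO cisplatin and then WT cisplatin down to WT pemetrexed. KO pemetrexed peaks were 590 to 7484 bp wide with a median of 1008 bp (95% interval of the median 966 to 1076). KO cisplatin peaks were 447 to 7807 bp wide with a median of 792 bp (768 to 821). WT cisplatin peaks were 370 to 1608 bp wide with a median of 621 bp (595 to 645), and WT pemetrexed peaks 373 to 931 bp with a median of 581 bp (567 to 598). The intervals of the 2 KO medians did not overlap each other or those of the WT lists, while the WT intervals overlapped from 595 to 598 bp. The narrowest KO pemetrexed peak was thus wider than the median WT pemetrexed peak.

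Wide peaks were mostly a feature of the KO lists. Peaks of at least 1 kb made up 50.6% of the interior KO pemetrexed peaks (78 of 154, 42.5 to 58.8%), with 61.9% in the whole list. In KO cisplatin they made up 16.8% (46 of 273, 12.6 to 21.8%, whole list 19.6%) and in WT cisplatin 4.58% (6 of 131, 1.70 to 9.70%, whole list 4.6%). In WT pemetrexed there were 0 of 90, where 3 counts would be 3.33% and the exact upper bound is 4.02%, and the whole list had 1.09%. At 2 kb or more there were 16 KO pemetrexed peaks (10.4%, 6.06 to 16.3%, whole list 22.6%), 4 KO cisplatin peaks (1.47%, 0.401 to 3.71%, whole list 0.986%) and 0 in the WT lists (whole lists 0.0554% for cisplatin and 0% for pemetrexed).

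KO pemetrexed peaks were narrower in the interior than elsewhere. In the rest of the genome their median was 1181 bp (1152 to 1209), above the interval of the interior median. The odds of being at least 1 kb wide were 0.623 times as high in the interior as in the rest (0.446 to 0.871), and those of being at least 2 kb wide were 0.388 times as high (0.215 to 0.656). For the other 3 lists the medians in the rest, 815 bp in KO cisplatin, 623.5 bp in WT cisplatin and 584.5 bp in WT pemetrexed, lay within the interior intervals. The odds ratio at 1 kb was 0.996 for WT cisplatin (0.347 to 2.33) and 0.822 for KO cisplatin (0.580 to 1.14). An interior difference in width was thus seen in the KO pemetrexed list, and in the others it was not detectable with these numbers.

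**Figure D5:**
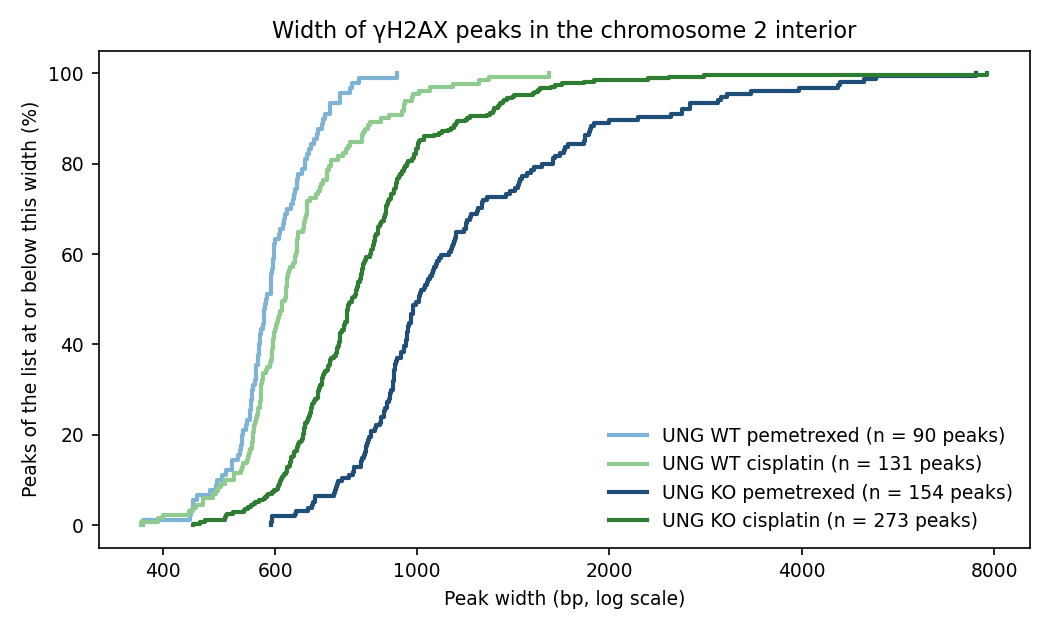
Cumulative percent of the interior peaks of each list at or below a given width, with width in bp on a log axis. The KO pemetrexed curve lies to the right of the others over most of its length, and the 2 WT curves lie close together on the left with medians of 581 and 621 bp.

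Within the KO pemetrexed list, 14 of the 16 peaks of at least 2 kb were on the short arm. They made up 13.7% of its short-arm peaks (7.71 to 22.0%), and the remaining 2 made up 3.85% of its long-arm peaks (0.469 to 13.2%), intervals that overlap. The median width was 1049 bp on the short arm (971 to 1193) and 965.5 bp on the long arm (898 to 1049). Peaks within 100 kb of another had a median of 1040 bp (980 to 1193) and those further away 925 bp (862 to 1058). Neither pair of medians was separated by its intervals. In KO cisplatin the medians were 847.5 bp on the short arm (780 to 879) and 762 bp on the long arm (728 to 795), again with overlapping intervals. In total the interior peaks covered 207 kb in KO pemetrexed, 241 kb in KO cisplatin, 86.7 kb in WT cisplatin and 53.7 kb in WT pemetrexed. Covered bases in KO were 3.85 times those in WT after pemetrexed, with mean widths of 1344 and 597 bp. After cisplatin they were 2.78 times as many, with mean widths of 884 and 662 bp. In the rest of the genome these ratios were 17.5 and 3.33.

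The widest interior peak of all was in the KO cisplatin list. It spanned 7807 bp on the long arm (132745257 to 132753064) and was the widest peak of that whole list. A second KO cisplatin peak of 2479 bp began 0.423 kb after it (132753487 to 132755966). No other list had a peak nearby, the nearest being a KO pemetrexed peak 1138 kb from the first. These 2 peaks make up 2 of the 4 interior KO cisplatin peaks of at least 2 kb. The other two lay on the short arm, at 24098189 to 24100998 (2809 bp) and at 25450662 to 25452957 (2295 bp), and the fifth widest measured 1892 bp (47724577 to 47726469). The peak of 2295 bp lay 0.153 kb from a KO pemetrexed peak and 10.2 kb from a WT cisplatin peak without touching either.

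All of the 5 widest KO pemetrexed peaks were on the short arm. The widest spanned 7484 bp (47400183 to 47407667) and had another peak of its list 0.014 kb away. Beside the peaks of 5227 and 4588 bp named above, the others were 5012 bp (69963086 to 69968098) and 4552 bp (72971758 to 72976310). At these 5 places the other lists had 0 peaks. The widest KO pemetrexed peak of the interior ranked 64th by width in its whole list, unlike the widest KO cisplatin peak, which ranked first.

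In the WT lists the widest peaks were much narrower. The widest WT cisplatin peaks were a pair 15.5 kb apart, of 1608 bp (46543801 to 46545409) and 1296 bp (46560939 to 46562235), followed by 1249 bp (38220615 to 38221864), 1138 bp (23618531 to 23619669) and 1049 bp (232274309 to 232275358). In WT pemetrexed the widest measured 931 bp and lay on the long arm (191454255 to 191455186), with a KO pemetrexed peak 9.30 kb away. The next were 812 bp (53722656 to 53723468), 790 bp (85800177 to 85800967), 787 bp (61759422 to 61760209) and 758 bp (12225857 to 12226615). None of these 10 peaks met a peak of another list.

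Places common to more than 1 list were few, in the interior as in the whole lists. With an overlap of at least 1 bp, 16 of the 648 peaks (2.47%, 1.42 to 3.98%) met a peak of another list, at 8 places. Over all placed peaks the share was 7.23%, and in the rest of the genome without the interior it was 7.49% (7.02 to 7.98%), above the interior interval. The makeup of the peaks by list differs between the interior and the rest, and its part in this difference was not tested. Each place held peaks of 2 lists, and 0 places held 3. All 8 were on the short arm, which holds 344 of the 648 peaks, and the long arm had 0 at this overlap. Long-arm peaks of different lists also lay close together without touching. An example is a WT cisplatin peak (116697837 to 116698407) followed by a KO cisplatin peak (116698549 to 116699218). The remaining 632 regions belonged to 1 list each.

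Both KO lists shared 4 places. They were at 25999910 to 26000921 (KO pemetrexed 1007 bp, KO cisplatin 855 bp, overlap 851 bp), 26834581 to 26835933 (944 and 692 bp, overlap 284 bp), 27533796 to 27535654 (1858 and 1349 bp, the second wholly inside the first) and 47177476 to 47179382 (1830 and 683 bp, overlap 607 bp). As a share, these places are 2.60% of the interior KO pemetrexed peaks (0.712 to 6.52%), with 6.24% in the whole list. They are 1.47% of the interior KO cisplatin peaks (0.401 to 3.71%), with 7.32% in the whole list. In the rest of the genome the KO cisplatin share was 7.69% (6.91 to 8.53%), above the interior interval, and the KO pemetrexed share was 6.35% (5.70 to 7.05%), which overlaps it. As a share of KO cisplatin peaks, overlap with pemetrexed was thus lower in the interior than elsewhere. The interior also holds fewer KO pemetrexed peaks per Mb that could be met, and that part was not tested.

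KO pemetrexed and WT cisplatin shared 3 places. One is the peak of 648 bp inside the largest group, and the others were at 25774786 to 25776257 (overlap 140 bp) and 38432720 to 38433580 (overlap 616 bp). They are 1.95% of the KO pemetrexed peaks (whole list 1.37%) and 2.29% of the WT cisplatin peaks (whole list 3.99%), near the background of the whole lists. The last shared place, 86449212 to 86449928, held a WT cisplatin peak of 572 bp and a WT pemetrexed peak of 709 bp that overlapped by 565 bp. It is 1.11% of the WT pemetrexed peaks (whole list 1.09%) and 0.763% of the WT cisplatin peaks (whole list 0.554%).

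The same drug in the 2 genotypes shared no interior place. For pemetrexed, 0 of 90 WT peaks met a KO peak, where 3 counts would be 3.33% and the exact upper bound is 4.02%. From the other side, 0 of 154 KO peaks met a WT peak, where 3 counts would be 1.95% and the exact upper bound is 2.37%. The whole lists had 1.42% and 0.247%. For cisplatin, 0 of 131 WT peaks met a KO peak (3 counts 2.29%, upper bound 2.78%, whole list 1.77%) and 0 of 273 KO peaks met a WT peak (3 counts 1.10%, upper bound 1.34%, whole list 0.701%). Between WT pemetrexed and KO cisplatin there were also 0 shared places, where the whole lists had 1.2% of WT pemetrexed and 0.241% of KO cisplatin peaks. In each case the share over the whole list is below both limits, so a lower rate in the interior was not detectable with these numbers. Some peaks lay close to one of another list without touching it. Within 10 kb, overlaps included, 22 KO pemetrexed peaks (14.3%, 9.17 to 20.8%, whole list 24.1%) had a KO cisplatin peak. For WT cisplatin peaks with a KO cisplatin peak the number was 10 (7.63%, 3.72 to 13.6%, whole list 12%), and for WT pemetrexed peaks with a KO pemetrexed peak it was 3 (3.33%, 0.693 to 9.43%, whole list 6.66%).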

How the data were processed

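Peak lists of 4 drug-treated ChIP-seq libraries were analysed, 1 per group, with groups taken from the sample titles. The submitters' processing notes name Bowtie (version not stated), MACS 1.4 and build hg18, with no control library, threshold or filter. Per the file headers, each deposited row gives a chromosome, start and end, with no score. No list held a duplicated row (0) or overlapping neighbours (0). Whether starts count from 0 or 1 is not given, so positions are printed as deposited.

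Widths, gaps, overlaps (at least 1 bp), windows of 1 Mb and exact (Clopper-Pearson) 95% intervals were computed in Python 3.11.15 with SciPy 1.17.1. Odds ratios are conditional, with exact intervals. Medians have order-statistic intervals. Comparisons with the rest of the genome left out peaks on unplaced contigs (from 2 in WT cisplatin to 8 in KO cisplatin and in WT pemetrexed). Whole-list percentages include the interior. The functions were tested on simulated peaks.

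The stretch, the regions and the tests were chosen with earlier results of these data known. Regions named are those in 2 or more lists, the 5 widest per list, the largest groups of neighbours, the 5 densest windows and the peaks at the boundaries. Beside these, empty runs, stretches of 10 Mb and smaller groups were named after their values were seen. Alternatives are given in the closing section.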

Additional observations from a re-analysis of the deposited data

Results flagged for a closer look

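Ratios of peak numbers that differed between parts of the genome, by an odds ratio whose interval leaves out 1, are listed here as values, with no explanation. The KO over WT ratio after pemetrexed was lower in the chromosome 2 interior than in the rest of the genome (odds ratio 0.276) and than in the chromosome 1 interior (0.362). The low chromosome 2 share of KO pemetrexed peaks was known when the stretch was proposed. These values restate the observation behind that choice and are no independent evidence. The same holds for every other comparison of the number of interior KO pemetrexed peaks with another part of the genome. Between the arms of the interior, the KO over WT ratio after pemetrexed was higher on the short arm (1.79, interval 1.02 to 3.16, close to 1). Pemetrexed over cisplatin in KO cells was lower in the interior than in the rest (0.473, 0.384 to 0.581) and than in the chromosome 1 interior (0.651, 0.507 to 0.835). It was higher than in the interiors of chromosomes 4, 13 and 18 (1.46, 1.06 to 2.04), and higher on the short arm than on the long arm (2.35). In WT cells, pemetrexed over cisplatin was higher in the interior than in the rest (1.39, 1.04 to 1.86). These 8 values come from 16 comparisons that share lists, so they are not independent of each other, and neighbouring peaks make the intervals too narrow.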

How the results depend on the processing

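No paired analysis was possible because the groups hold 1 library apiece, and no library could be left out for the same reason. The 35 results were recomputed under 147 alternatives. Of these, 94 left the direction as it was and stayed within the interval, or within 1.5 times for counts and covered bases. A further 52 moved and 1 reversed. Some alternatives change what is measured, such as another distance, width limit or window size, and a move is then built in. The number that moved is therefore no measure of how stable the results are. Leaving out 8 to 28 Mb or the largest group was chosen after the data were seen. A stricter calling threshold could not be applied, since the files give no score. Unless a value below shows it, the cause was not tested.

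After pemetrexed the KO over WT ratio in number fell to 0.83 with peaks within 100 kb joined. This value is counted as reversed because it is below 1, but it has no interval here. The same ratio moved to 4.58 with peaks of at least 600 bp and to 1.13 without 8 to 28 Mb. For cisplatin it moved to 1.67 with joining at 100 kb and to 3.36 at 600 bp. Pemetrexed over cisplatin was 0.44 in WT at 600 bp. In KO it was 0.460 joined at 10 kb, 0.367 joined at 100 kb and 0.423 without 8 to 28 Mb. The pemetrexed ratio over the cisplatin ratio was 0.497 joined at 100 kb and 1.36 at 600 bp. The odds ratio of the interior against elsewhere after pemetrexed was 0.560 joined at 100 kb.

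Covered bases, KO over WT after pemetrexed, moved to 9.01 at 600 bp, 6.20 joined at 10 kb and 2.42 without 8 to 28 Mb. The share of peaks at or above 2 kb in place of 1 kb was 10.4% in KO pemetrexed, 1.47% in KO cisplatin and 0% in WT cisplatin.

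Shares of peaks near another within 10 kb were 30.5% in KO pemetrexed, 8.79% in KO cisplatin, 3.05% in WT cisplatin and 0% in WT pemetrexed. Within 1 Mb they were 92.9%, 89.0%, 79.4% and 56.7% in the same order. At 600 bp the WT pemetrexed share within 100 kb was 12.1%, with 33 peaks left of 90. The 4 WT pemetrexed peaks with a neighbour were all at least 652 bp wide and passed this limit. The share thus rose because other peaks were removed. Without 8 to 28 Mb the share within 100 kb was 61.3% in KO pemetrexed and 38.2% in KO cisplatin. The short-arm share was 66.7% in WT pemetrexed at 600 bp and 53.4% in KO pemetrexed joined at 100 kb. Without 8 to 28 Mb the short-arm share was 44.1% in KO pemetrexed and 32.3% in KO cisplatin. Leaving out that stretch also lowers the short arm's share of the span, which is 37.3% in the full interior.

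Shared peaks of KO pemetrexed with KO cisplatin numbered 2 at a reciprocal overlap of 50%, 22 within 10 kb and 81 within 100 kb. For WT cisplatin with KO pemetrexed the numbers were 1, 10 and 22. Within 10 kb and 100 kb there were 10 and 38 for WT cisplatin with KO cisplatin, 3 and 10 for WT pemetrexed with KO pemetrexed, and 2 and 23 for WT pemetrexed with KO cisplatin. For WT pemetrexed with WT cisplatin they were 2 and 12, and 0 at 600 bp. Windows of 5 Mb that held 50% of the peaks numbered 4 for KO pemetrexed, 11 for each cisplatin list and 12 for WT pemetrexed, and with peaks joined at 100 kb the KO pemetrexed list needed 16 windows of 1 Mb.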
